A study of Mus musculus with 71 samples.

Results

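Srsf1, Srsf2, Srsf3, Srsf4, Srsf5, Srsf6, Srsf7, Srsf9, Srsf10 and Srsf11 encode the SR splicing factors analysed here. The 10 genes were chosen by name from the 21527 genes counted in each library, and all 10 passed the filter on low counts, as did 12659 genes in all. SR proteins join RNA-recognition motifs to a tail rich in arginine and serine, bind enhancer elements in exons and help the spliceosome to recognise the neighbouring splice sites. Several of them also travel to the cytoplasm with spliced mRNA. Many of their genes carry poison exons, whose inclusion brings in an early stop codon and sends the transcript to nonsense-mediated decay, so that an SR protein can hold down its own mRNA.

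SLAM-seq was performed on total RNA of male mouse embryonic stem cells (mESC), pluripotent cells of the early embryo grown in 2i/LIF medium. The nucleoside 4-thiouridine (s4U, 100 µM) was added for 24 h and then replaced by an excess of uridine, and s4U left in the RNA was read as T-to-C conversions in libraries that cover the 3′ ends of transcripts. STM2457 (20 µM), an inhibitor of the m6A methyltransferase Mettl3, or its solvent DMSO was given from 6 h before the uridine chase until collection. Cells of both treatments were collected after 0, 1, 1.5, 2.3, 3.5, 5.3, 8 and 12 h of chase, with 4 libraries per treatment and time and 3 for STM2457 at 3.5 h. A further 4 libraries per treatment received no s4U, and how long these cells had been treated is not given in the sample labels. Hours of chase, hours of treatment and hours in culture rose together and cannot be told apart. The study's methods call its replicates biologically independent, while the labels only number them, and p-values measure the spread between these libraries. All cells came from 1 male line, and in bulk RNA fewer cells with a transcript and less of it per cell cannot be told apart.

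The 71 libraries held between 4539726 and 7368244 counted reads (median 5726508). A level is given as reads per 1e6 counted reads of the library (CPM) after TMM scaling, and a change as a log2 difference ± its standard error from edgeR's quasi-likelihood test with Benjamini-Hochberg adjustment over the 12659 genes, called at an adjusted p under 0.01. Pluripotency markers were abundant. The 7 listed markers analysed here summed to between 1089 and 1955 CPM (median 1459), led by Pou5f1 with a median of 822 CPM, and only Klf4, with a median of 2.71 CPM, was at 0 in any library (3 of them). Markers of other cells were lower. The 4 fibroblast genes summed to a median of 11.7 CPM, nearly all of it Thy1 (10.9 CPM), within a range of 4.09 to 23.2 CPM, and Col3a1 was at 0 in 69 libraries. The 4 endoderm genes summed to a median of 4.73 CPM, most of it Gata4 (4.09 CPM), within a range of 1.15 to 12.8 CPM, and Afp was at 0 in 64 libraries. The 3 mesoderm and ectoderm genes analysed summed to a median of 17.8 CPM, most of it T (14.8 CPM), and Neurog2 was at 0 in 60 libraries. This sum ran from 5.96 to 82.2 CPM, with T up to 74.5 CPM.

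Of the 71 libraries, 12 stood apart on the first principal component of log2 CPM, computed without the Srsf genes, which carried 11.6% of the variance. On it the 12 reached at most −38.3 and the other 59 lay at −24.4 or above. They were 9 of the 36 DMSO libraries (no s4U replicate 4, 0 h replicate 1, 1 h replicates 2, 3 and 4, 1.5 h replicates 2 and 4, 5.3 h replicates 3 and 4) and 3 of the 35 STM2457 libraries (1 h replicates 1, 2 and 4). Their reads covered fewer T positions, with a median of 18.9 covered T per read (17.9 to 19.1) against 19.8 (19.1 to 20.3) in the rest. Srsf levels differed in them too, and these levels were in view when the 12 were set apart. The median of Srsf3 was 668 CPM in the 12 and 436 CPM in the 59, that of Srsf7 417 and 284 CPM, that of Srsf10 158 and 110 CPM and that of Srsf11 165 and 105 CPM. Srsf9 went the other way, with 286 and 397 CPM, as did Srsf4 with 50.7 and 63.5 CPM, while Srsf2 (732 and 765 CPM) and Srsf5 (310 and 307 CPM) were close. Which step of the work set these libraries apart was not tested, and each test of Srsf levels and the pooled half-lives are also given without them. The tests of conversion rates and of half-lives in replicate series are printed with them only.

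**Figure D1:**
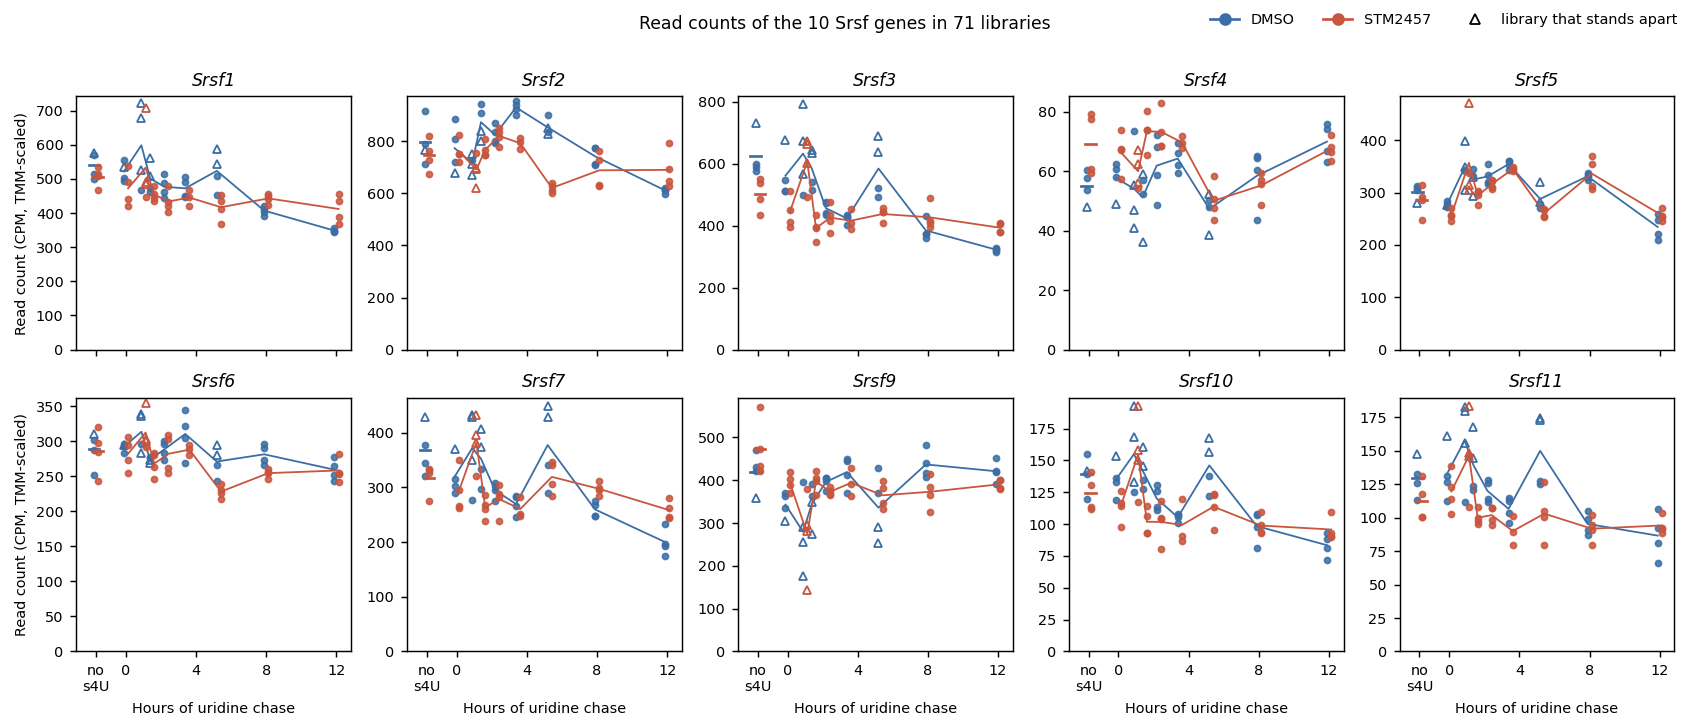
Read counts (CPM after TMM scaling, y axis) of each Srsf gene against hours of uridine chase (x axis) in DMSO (blue) and STM2457 (red), with the libraries that had no s4U at the left. Points are libraries, lines join group means, and triangles mark the 12 libraries that stand apart, where Srsf3 had a median of 668 CPM against 436 CPM in the others.

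The order of the members by level depends on whether CPM is divided by the length of the counted window, since reads at 3′ ends need not scale with it. In DMSO without s4U, Srsf2, a factor of the nuclear speckles, was the highest by both measures, at 796 ± 86 CPM (SD, n = 4) and 3108 ± 335 CPM per kb of window. By CPM it was followed by Srsf3 (624 ± 72), Srsf1 (540 ± 39), Srsf9 (420 ± 46), Srsf7 (368 ± 46), Srsf5 (302 ± 15) and Srsf6 (289 ± 26). The lowest were Srsf10 (139 ± 14), Srsf11 (130 ± 14) and Srsf4 (55 ± 5.3). Windows ran from 254 bases for Srsf9, an SR protein with a short serine-arginine tail, to 1321 bases for Srsf10. Per kb Srsf9 came second at 1655 ± 181, ahead of Srsf7 (733 ± 93), while Srsf3 came sixth at 536 ± 62 and Srsf10 last at 105 ± 11. Replicate 4 of this group is one of the 12 libraries that stand apart, and without it the order by CPM was the same, with Srsf2 at 806 CPM and Srsf3 at 588 CPM (n = 3), whereas per kb Srsf5 (612) passed Srsf1 (600). The lowest depth of any member in a library was 176 reads, for Srsf4, and the highest 5746 reads, for Srsf2.

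Part of the reads of some members mapped to more than 1 place. The median share per library was 49% for Srsf10, 40.6% for Srsf5, 31.4% for Srsf2, 19.3% for Srsf3 and 9.52% for Srsf11, and below 1% for the other 5 members. Transcripts of other annotated genes held runs of 50 bases identical to Srsf3 (5 genes), to Srsf2 and Srsf10 (2 each) and to Srsf1, Srsf4, Srsf5 and Srsf7 (1 each), so that a read of these members may have come from elsewhere. The genes found for Srsf2 (Mettl23 and Mfsd11), for Srsf1 (Gm11508) and for Srsf4 (Gm12992) overlap these members on the opposite strand.

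The longest interval of the experiment, 12 h against 0 h of chase, shows how the levels moved within each treatment. In DMSO, 6 of the 10 Srsf genes fell, where 8.2% of all genes tested fell and 13% were called in either direction. They were Srsf3 and Srsf7, adaptors that link spliced mRNA to its export receptor, Srsf1, the founding member of the family, Srsf10, a factor that represses splicing when dephosphorylated, Srsf11, a speckle protein, and Srsf2. Srsf3 had 675, 547, 511 and 513 CPM at 0 h and 329, 316, 324 and 323 CPM at 12 h. Its lowest library at 0 h thus lay well above its highest at 12 h, and the log2 difference was −0.80 ± 0.11 (edgeR, adjusted p = 6.6e-08, n = 4 and 4).

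Srsf1 had 535, 493, 503 and 555 CPM at 0 h and 348, 346, 345 and 355 CPM at 12 h, where the 4 libraries were close together and all below those of the onset. Its log2 difference was −0.58 ± 0.10 (edgeR, adjusted p = 1.6e-05). Srsf7, which carries a zinc knuckle beside its RNA-recognition motif, had 370, 316, 290 and 302 CPM at 0 h and 194, 175, 234 and 197 CPM at 12 h. The groups were again apart, by −0.68 ± 0.12 (edgeR, adjusted p = 1.0e-05).

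Srsf10 had 153, 133, 119 and 136 CPM at 0 h and 88.0, 71.8, 92.8 and 81.3 CPM at 12 h, a log2 difference of −0.70 ± 0.13 (edgeR, adjusted p = 3.4e-05). Srsf11 had 161, 131, 113 and 127 CPM at 0 h and 92.1, 66.1, 81.4 and 107 CPM at 12 h, a log2 difference of −0.62 ± 0.14 (edgeR, adjusted p = 0.00075). The first value of each at 0 h is that of a library that stands apart. Srsf2 moved least of the 6, from 679, 719, 809 and 884 CPM to 613, 613, 619 and 598 CPM, with a log2 difference of −0.34 ± 0.08 (edgeR, adjusted p = 0.0011).

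The other 4 members did not pass the threshold. Srsf5, which carries a pair of RNA-recognition motifs, had 273 to 283 CPM at 0 h and 209 to 260 CPM at 12 h, a log2 difference of −0.24 ± 0.09 (edgeR, adjusted p = 0.040). Srsf6 was at −0.17 ± 0.09 (adjusted p = 0.15, edgeR), and Srsf4 and Srsf9 lay on the other side of 0, at 0.28 ± 0.14 and 0.30 ± 0.15 (edgeR, adjusted p = 0.14 and 0.15). The median over the 10 members was −0.46, and over all genes tested 0.04. In each of the 10 members the libraries of 0 h and 12 h did not overlap in DMSO, higher at 12 h for Srsf4 and Srsf9 and lower for the other 8. Overlap was not counted over all genes tested, so these numbers have no background to be read against.

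Only 1 library of this comparison stands apart, DMSO replicate 1 at 0 h. With the 12 such libraries left out, an alternative added after the data had been seen, the same 6 members were called lower, with log2 differences between −0.72 for Srsf3 and −0.42 for Srsf2. In that fit 1753 of 13565 genes were called. The same 6 were called with the covered T positions per read as a covariate, also added later, where 1496 of 12659 genes were called. Srsf2 was no longer called without DMSO replicate 3 (−0.32, adjusted p = 0.015 in edgeR) or replicate 4 (−0.28, adjusted p = 0.028), nor Srsf11 without DMSO replicate 2 (−0.53, adjusted p = 0.018). With reads that map to 1 place only, Srsf5 was called as well (−0.67, adjusted p = 1.8e-05 in edgeR), where 1568 of 12556 genes were called.

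In STM2457 edgeR called 0 of the 10 members between 12 h and 0 h (1 at an unadjusted p under 0.05), where 4.72% of all genes were called. DESeq2 called 0 (1 at an unadjusted p under 0.05), with 729 of 10279 genes called. For edgeR and DESeq2, here and below, genes at an unadjusted p under 0.05 were not counted over all genes. Srsf3 had 511, 451, 397 and 412 CPM at 0 h and 381, 405, 379 and 409 CPM at 12 h, which overlap, with a log2 difference of −0.17 ± 0.11 (edgeR, adjusted p = 0.38). Srsf1 was at −0.20 ± 0.10, Srsf7 at −0.18 ± 0.12, Srsf10 at −0.25 ± 0.13 and Srsf2 at −0.14 ± 0.08. Srsf11 was furthest from 0, at −0.34 ± 0.14 (edgeR, adjusted p = 0.12). The 2 sets of libraries overlapped for each of the 10 members, again without a count over all genes. The median log2 difference of the members was −0.16 against 0.00 over all genes tested. No library of these groups stands apart, and without the 12 libraries edgeR again called 0 members (3 at an unadjusted p under 0.05), where 1103 of 13565 genes were called.

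Whether the change over 12 h differed between the treatments was tested as an interaction. EdgeR called 0 members (4 at an unadjusted p under 0.05), with 1.11% of all genes called (0.916% with the higher change in STM2457). DESeq2 called 1 (6 at an unadjusted p under 0.05), with 194 of 10279 genes called. The unadjusted counts again have no background to be read against. Srsf3, whose STM2457 libraries at 0 h already lay just below those of DMSO, came closest, with a log2 difference of 0.63 ± 0.16 between the changes (edgeR, adjusted p = 0.013). It was called in 7 of the 16 alternatives with a test, among them DESeq2 (0.64, adjusted p = 0.0033), the fit without the 12 libraries that stand apart (0.56, adjusted p = 0.00074 in edgeR) and the covariate for covered T positions (0.62, adjusted p = 0.00056 in edgeR), and over all 16 the adjusted p ran from 0.00056 to 0.065. Srsf7 (0.49 ± 0.17), Srsf10 (0.45 ± 0.18) and Srsf1 (0.38 ± 0.15) were not called, with adjusted p from 0.11 to 0.21 in edgeR. The difference was above 0 for 8 members and below 0 for Srsf4 (−0.25 ± 0.20) and Srsf9 (−0.31 ± 0.21).

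**Figure D2:**
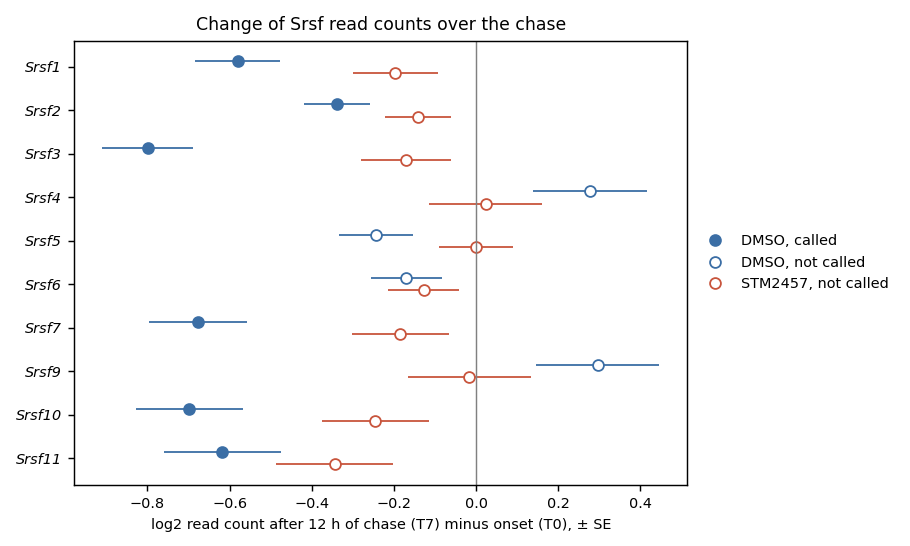
Log2 difference in read count between 12 h and 0 h of chase (x axis, ± standard error) for each Srsf gene (y axis) in DMSO (blue) and STM2457 (red). Filled points are called by edgeR at an adjusted p under 0.01, which holds for 6 genes in DMSO, the lowest of them Srsf3 at −0.80, and for 0 genes in STM2457.

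The treatments were then compared directly, first over the mean of the 8 chase times. In STM2457 4 of the 10 members were lower and 0 higher, with 12.6% of all genes called lower and 26.5% called in either direction. The differences were small. Srsf11 was at −0.21 ± 0.05 (edgeR, adjusted p = 0.00053), Srsf10 at −0.15 ± 0.05 (adjusted p = 0.0064), Srsf3 at −0.14 ± 0.04 (adjusted p = 0.0044) and Srsf2 at −0.11 ± 0.03 (adjusted p = 0.0013), all by edgeR.

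Of the other 6, Srsf4, which carries one of the longest serine-arginine tails of the family, had a positive difference of 0.15 ± 0.05 (edgeR, adjusted p = 0.014), and the remaining 5 lay between −0.08 and 0.00. The 12 libraries that stand apart fall unevenly in this comparison, 8 in DMSO and 3 in STM2457 among the labelled ones. Without them edgeR called 1 member, Srsf2 (−0.13, adjusted p = 0.0015), and 2705 of 13565 genes, with Srsf11 at −0.14 (adjusted p = 0.020), Srsf10 at −0.13 (adjusted p = 0.043) and Srsf3 at −0.08 (adjusted p = 0.083). Srsf4 was then at 0.04 ± 0.05 (edgeR, adjusted p = 0.65). In that fit each treatment keeps 1 library at 1 h, which is taken to vary like the libraries of the other groups. With the covariate for covered T positions edgeR called Srsf2 and Srsf11, where 3385 of 12659 genes were called. Srsf2 itself was not called with uniquely mapped reads (−0.09, adjusted p = 0.012 in edgeR), without the filter on low counts (adjusted p = 0.010) or without DMSO replicate 3 (adjusted p = 0.015). Uniquely mapped reads left out Srsf3 (−0.12, adjusted p = 0.013) and Srsf10 (−0.09, adjusted p = 0.21) as well in edgeR. Srsf11 alone was then called, with 3267 of 12556 genes. Without DMSO replicate 4, or without STM2457 replicate 3, Srsf11 was not called and Srsf2 was the only member called. Of 15 alternatives for each member, the call was lost in 3 for Srsf2, 3 for Srsf11, 7 for Srsf3 and 9 for Srsf10.

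Taken singly, 2 of the 8 chase times gave Srsf calls, in tests that share their libraries with the mean over the chase. At 1.5 h 4 members were called, with 8.18% of all genes. Srsf3 had 516, 635, 543 and 645 CPM in DMSO and 435, 347, 391 and 396 CPM in STM2457. All 4 STM2457 libraries were below all 4 DMSO libraries, and the log2 difference was −0.58 ± 0.11 (edgeR, adjusted p = 0.00015). Srsf10 (−0.48 ± 0.13, adjusted p = 0.0065) and Srsf7 (−0.42 ± 0.12, adjusted p = 0.0087) were also lower in edgeR.

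Srsf4 was the member called higher at 1.5 h, with 57.1, 59.1, 52.5 and 36.3 CPM in DMSO and 73.8, 73.7, 65.5 and 80.4 CPM in STM2457. The treatments were again apart, by 0.52 ± 0.14 (edgeR, adjusted p = 0.0067). Replicates 2 and 4 of DMSO at this time are among the 12 libraries. Without the 12 edgeR called Srsf3 (−0.44, adjusted p = 0.0012) and no other member, where 531 of 13565 genes were called. Srsf4 was then at 0.42 (adjusted p = 0.076), Srsf10 at −0.37 (adjusted p = 0.072) and Srsf7 at −0.26 (adjusted p = 0.12), all by edgeR.

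At 5.3 h 3 members were called lower, with 4.45% of all genes called. Srsf2 had 835, 900, 827 and 849 CPM in DMSO and 601, 628, 640 and 613 CPM in STM2457, sets that lie far apart, with a log2 difference of −0.46 ± 0.08 (edgeR, adjusted p = 4.9e-05). Srsf11 (−0.54 ± 0.14, adjusted p = 0.0078) and Srsf3 (−0.42 ± 0.11, adjusted p = 0.0084) followed in edgeR. DMSO replicates 3 and 4 at this time stand apart, with 637 and 689 CPM of Srsf3 against 492 and 521 CPM in replicates 1 and 2. Without the 12 libraries edgeR called Srsf2 alone among the members (−0.48, adjusted p = 0.00011), where 220 of 13565 genes were called. Srsf3 was then at −0.21 and Srsf11 at −0.29 (both adjusted p = 0.28 in edgeR).

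EdgeR and DESeq2 called 0 members in the other comparisons of the treatments. In these edgeR called 2.58% of all genes without s4U, 1.68% at 0 h, 1.53% at 1 h, 1.61% at 2.3 h, 1.3% at 3.5 h, 2.34% at 8 h and 5.41% at 12 h. DESeq2 called from 206 of 9607 genes at 3.5 h to 807 of 10951 genes at 12 h. At an unadjusted p under 0.05 edgeR had 2 members without s4U, 1 each at 0 h and 3.5 h, 0 at 1, 2.3 and 8 h, and 4 at 12 h. Without the 12 libraries edgeR still called 0 members in these comparisons, except at 12 h, while 1 h, with 1 library left in each treatment and 7 of 13565 genes called, is no test of this. At 12 h the estimates of most members were above 0. Srsf7 was at 0.37 ± 0.12 (edgeR, adjusted p = 0.031) and Srsf3 at 0.29 ± 0.11 (edgeR, adjusted p = 0.091). The STM2457 libraries of Srsf1, Srsf2, Srsf3 and Srsf7 all lay above those of DMSO, and how many of all genes did so was not counted. None of the 12 h libraries stands apart, but the spread is estimated over all groups, and without the 12 libraries the standard error of Srsf7 was 0.09 in place of 0.12. EdgeR then called Srsf7 (0.39, adjusted p = 0.00070) and Srsf3 (0.31, adjusted p = 0.0042) higher at 12 h, with 1088 of 13565 genes called. The covariate for covered T positions gave the same Srsf calls as the fit without the 12 libraries at 1.5, 5.3 and 12 h. With it 376, 566 and 1014 of 12659 genes were called at these times. When edgeR was fitted to only the 2 groups compared, it called Srsf3, Srsf7, Srsf10 and Srsf11 lower at 1.5 h but not Srsf4 (1474 of 10727 genes called), Srsf2 alone at 5.3 h (159 of 10737), and Srsf3 and Srsf7 higher at 12 h (1021 of 11007), with 0 members in the other comparisons. Whether the differences at 5.3 h and 12 h differ from each other was not tested.

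Labelling itself was compared in the libraries of 0 h and those without s4U. EdgeR called 0 members in DMSO, where 0.513% of all genes were called, and 0 in STM2457, where 0.521% were, with 0 members at an unadjusted p under 0.05 in both. DESeq2 called 0 in both (1 and 0 at an unadjusted p under 0.05), with 107 of 10615 and 118 of 10951 genes called. Srsf9 had the largest estimates, −0.29 ± 0.15 in DMSO and −0.26 ± 0.15 in STM2457. Without the 12 libraries edgeR also called 0 members in both (2 and 3 at an unadjusted p under 0.05), where 99 and 216 of 13565 genes were called.

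Members that moved together over the 18 group means of log2 CPM formed a block of Srsf1, Srsf3, Srsf7, Srsf10 and Srsf11, with Pearson's r from 0.87 for Srsf7 and Srsf11 to 0.98 for Srsf3 and Srsf10. Srsf4 and Srsf9 ran against this block, down to r = −0.69 for Srsf4 and Srsf7. Without the 12 libraries that stand apart, r within the block ran from 0.73 to 0.96. Between Srsf9 and the block it then lay between −0.13 and 0.08, and between Srsf4 and the block it ran from −0.58 (Srsf7) to −0.14 (Srsf1). Among 7942 genes with a mean of at least 10 CPM, the profiles most like the mean of the 10 members were those of Rpf2 (r = 0.94), a ribosome assembly factor, Pin4 (0.94), a prolyl isomerase, Ywhaz (0.93), a 14-3-3 protein, Khdrbs1 (0.93), an RNA-binding splicing regulator, and Tomm20 (0.92), a mitochondrial import receptor. Most like Srsf11 were Dmtf1, Nup133 and Rps27l (r = 0.96 for each). These similar profiles were searched with the 12 libraries only.

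Decay was followed by the conversion rate, the share of covered T positions read as C. At the onset of the chase the mean rate of the members lay between 1.20% for Srsf4 and 1.56% for Srsf10 in DMSO, and between 1.00% for Srsf4 and 1.55% for Srsf6 in STM2457. Limma, at an adjusted p under 0.05, called 0 of 11424 genes between the treatments at onset, with 218 genes and 0 of the 10 members at an unadjusted p under 0.05. Its 95% intervals were wide, from −0.39 to 0.46 for Srsf1 and from −1.50 to 0.96 for Srsf4 on the log2 scale. In libraries without s4U the rate was 0.190% for Srsf2 and 0.152% for Srsf9, against a median of 0.0636% over 9707 genes. This background was subtracted before the half-life fits, but not from the rates that limma tested.

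Srsf1 began at 1.36% ± 0.03 (SD, n = 4) in DMSO, held 1.09% ± 0.06 at 3.5 h and fell to 0.444% ± 0.019 at 5.3 h and 0.121% ± 0.046 at 12 h. In STM2457 it began at 1.40% ± 0.11 (SD, n = 4) and was at 0.895% ± 0.108 (n = 3), 0.380% ± 0.078 and 0.0672% ± 0.0138 at the same times. After background subtraction this left 79.9% of the onset label at 3.5 h in DMSO and 63% in STM2457. Srsf3 kept 89.4% at 3.5 h in DMSO and 59.8% in STM2457, then 25.5% and 16% at 5.3 h. A steep loss between these times was seen over all genes in both treatments, with a mean rate per library group of 1.01% and then 0.534% in DMSO, and of 0.927% and then 0.526% in STM2457. A single exponential describes such a course only roughly. Srsf9 lost its label most slowly, with 19.7% left at 12 h in DMSO and 10.6% in STM2457, while the other 9 members had at most 6.30% left in either treatment. Over the whole chase limma called 0 of 11424 genes for a treatment difference in the label kept, with 277 genes and 0 of the 10 members at an unadjusted p under 0.05. Background was not subtracted in this test, so it tells little where late rates lie near the background. At 12 h Srsf2 had 0.177% in DMSO and 0.186% in STM2457, against 0.190% without s4U.

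Half-lives from an exponential decay fixed at 1 at the onset were obtained for all 10 members in both treatments. Growth was not subtracted, so they are half-lives of the label, including its dilution. With growth at the doubling time that the study states subtracted, Srsf9 had 12.5 h (DMSO) and 8.14 h (STM2457) and Srsf1 7.35 and 4.91 h. The same growth rate is subtracted in both treatments, so this step cannot change which treatment has the longer value. In DMSO Srsf9 had 6.43 h, Srsf1 4.74 h and Srsf3 4.31 h. The value of Srsf9 was longer than 92.4% of the 7366 transcripts with a value in both treatments. The other 7 members lay between 2.73 h for Srsf5 and 3.43 h for Srsf11, on both sides of the median of these transcripts, 3.2 h. Under STM2457 treatment Srsf9 had 5.05 h, Srsf4 4.21 h and Srsf11 4.08 h, the others between 2.85 h for Srsf6 and 3.58 h for Srsf1. The median of the same transcripts was 3.46 h. The pooled half-life was longer in STM2457 for 5 members and for 56.7% of the 7366 transcripts with a value in both treatments.

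The spread was taken from 4 series per treatment, each made of the libraries with 1 replicate number. The half-life of Srsf1 was 4.71, 5.10, 4.69 and 4.44 h in the DMSO series and 3.85, 3.86, 3.19 and 3.25 h in the STM2457 series. Each STM2457 series was shorter than each DMSO series, with a ratio of 0.745 (95% interval 0.579 to 0.958). The exact permutation test gave p = 0.029, two-sided and the smallest that 4 against 4 allow, but limma's adjusted p over 1825 transcripts was 0.35, so that the difference did not pass the correction. Srsf3 had 5.72, 3.73, 3.94 and 4.33 h in DMSO and 3.57, 3.56, 3.08 and 2.80 h in STM2457, also apart, with a ratio of 0.741 (95% interval 0.557 to 0.986, exact permutation test p = 0.029, limma adjusted p = 0.40).

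Srsf9 came next, with 6.57, 7.97, 5.99 and 5.65 h in DMSO and 5.65, 4.51, 4.5 and 5.57 h in STM2457. These sets just touch, with a ratio of 0.775 whose 95% interval ran from 0.589 to 1.02 (exact permutation test, p = 0.057). For Srsf2, Srsf5, Srsf6 and Srsf7 the series overlapped and the exact permutation p lay between 0.31 and 0.60. Srsf4, Srsf10 and Srsf11 lacked a half-life in at least 1 series and were not tested. The series of Srsf4 that gave one, 1.88 h in DMSO and 2.90 and 2.98 h in STM2457, lay well below its pooled values of 3.35 and 4.21 h, which are therefore uncertain. The series means of Srsf10 were 2.83 h in DMSO and 2.82 h in STM2457, so that its longer pooled value in STM2457 was not seen in them. Limma called 0 of the 7 members tested and 0.0548% of all transcripts, a single one, Ptrh2, named here after its value had been seen. At an unadjusted p under 0.05 it had 2 of the 7 members and 215 of the 1825 transcripts. Series that lie apart were not counted over all transcripts. STM2457 series 4, the shortest for Srsf3, lacks the 3.5 h library. Without 3.5 h in both treatments the pooled half-life of Srsf3 was 3.56 h (DMSO) and 3.06 h (STM2457), and that of Srsf1 4.22 and 3.31 h. The separation of the series is given only with 3.5 h kept in the others. Over 14 alternatives the series log2 difference ran from −0.62 to −0.23 for Srsf3 and from −0.61 to −0.35 for Srsf1. Without the 12 libraries that stand apart, Srsf1 had 4.63 and 3.63 h, Srsf3 3.91 and 3.27 h and Srsf9 6.28 and 5.16 h, and each of the 10 members kept the treatment in which its half-life was longer.

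**Figure D3:**
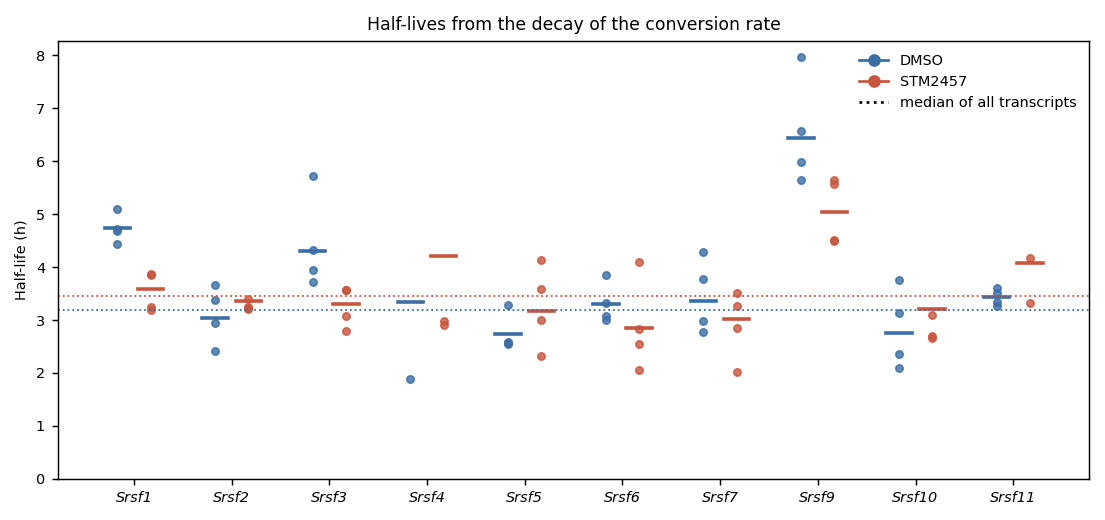
Half-life in hours (y axis) of each Srsf gene (x axis) in DMSO (blue) and STM2457 (red). Bars are fits to the mean of all replicates, and points are the replicate series with a half-life. Dotted lines mark the medians of the 7366 transcripts with a value in both treatments (3.2 h in DMSO, 3.46 h in STM2457). Among the 7 members tested, the series of the treatments do not overlap for Srsf1 and Srsf3, which are shorter in STM2457. The series of Srsf4, 1 in DMSO and 2 in STM2457, lie apart the other way and were not tested. Such separation was not counted over all transcripts.

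SR proteins work with kinases that phosphorylate their tails, with a nuclear import receptor and with other proteins of the same kind, which were followed as lists. Of 9 SR kinases and import factors tested over the chase, 2 were higher and 2 lower in STM2457, where 26.5% of all genes were called. Dyrk1a was at 0.30 ± 0.04 (edgeR, adjusted p = 1.3e-09), Srpk1 at 0.17 ± 0.04, Clk2 at −0.25 ± 0.07 and Tnpo3, the import receptor, at −0.12 ± 0.04. Of 26 other proteins with such tails or bound to SR proteins 4 were called. Of these 2 were higher, Acin1 (0.44 ± 0.09) and Sfswap (0.23 ± 0.07), and 2 lower, Rsrp1 (−0.27 ± 0.07) and Thrap3 (−0.17 ± 0.04). Ythdc1, the nuclear m6A reader that binds Srsf3 and Srsf10, was higher by 0.79 ± 0.05 (edgeR, adjusted p = 7.7e-24), while the export factors Alyref (0.03 ± 0.03) and Nxf1 (0.01 ± 0.04) were not called. At single times Ythdc1 was not called at 5.3 h (0.45, adjusted p = 0.014 in edgeR) or at 12 h (0.30, adjusted p = 0.14), and between 0 and 12 h in STM2457 it fell by 0.72 ± 0.13 (edgeR, adjusted p = 3.7e-05). These list values were not recomputed without the 12 libraries.

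Between 12 h and 0 h in DMSO, 8 of the same 26 partners fell and 0 rose, where 8.2% of all genes fell and 13% were called. They included Tra2b (−0.69 ± 0.11, edgeR, adjusted p = 7.1e-07), an SR-like splicing activator, Tra2a (−0.49 ± 0.15), Rnps1 (−0.56 ± 0.12), a part of the exon junction complex, and Rsrp1 (−1.28 ± 0.19). The median over the 26 was −0.27, beside −0.46 over the 10 Srsf genes and 0.04 over all genes tested. Among the kinases and import factors Srpk2 rose (0.54 ± 0.15, edgeR, adjusted p = 0.0070) and 0 of 9 fell. In STM2457, where 4.72% of all genes were called, 2 of the 26 partners fell, Rnps1 (−0.44 ± 0.12, edgeR, adjusted p = 0.0090) and U2af1 (−0.43 ± 0.12), as did the kinase Dyrk1a (−0.45 ± 0.11). Rnps1 thus fell in both treatments.

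The annotation (GENCODE M21, GRCm38) lists a transcript subject to nonsense-mediated decay for 9 of the 10 members, Srsf10 being the exception, against 21.9% of 19380 genes with a CCDS transcript, and a retained-intron transcript for 8 of 10, against 44.7%. Poison exons are a known trait of the family, and reads at 3′ ends do not tell such transcripts from the coding ones where they share their end. Mettl3 methylates the adenosine of motifs such as GGACT, searched here on the transcript strand together with its variants that end in A or in C. At least 1 of these stood in the 3′ UTR of 9 of the 10 members, against 81.2% of 17534 genes with a 3′ UTR of at least 100 bases, with a median of 1.85 per kb in the members and 2.51 per kb in all genes. Srsf11 had 0. The AU-rich element ATTTA stood in 8 of 10, against 67.3%. These 3′ UTRs come from the annotation and are not the counted windows, whose positions are not in the files (4149 against 879 bases for Srsf1). A match of letters is not a methylated site.

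The first such motif after the stop codon is shown with its surroundings for the 4 members that changed most over the chase in DMSO and hold one, each 25 bases within the 3′ UTR on GRCm38, with the motif in capitals. They lie on chr17:29043161-29043185 (plus strand), chr4:135867349-135867373 (plus), chr17:80201125-80201149 (minus) and chr11:88050305-88050329 (plus).
Srsf3: accctgtattGGACTgtaataaaca
Srsf10: aagcattttaGGACAaataaaagga
Srsf7: ggatctgaaaGGACTttgaaatttt
Srsf1: gttttaatagGGACTaatgtgggaa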

How the data were processed

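SLAM-seq libraries of male mESC were analysed from the tables of each library. The authors mapped the reads to GRCm38.p6 with SLAM-DUNK, masked variants seen in the unlabelled libraries, and deposited raw counts per gene of reads, multimapping reads, covered T positions and conversions on 3′ UTR windows. Conversion rates in the deposited tables were a fraction, equal to conversions over covered T positions, with no background subtracted. Groups and replicate numbers came from the labels. The hours of chase are not in the labels and were read from a figure of the study. The members and lists were chosen with earlier results of these data known.

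Read counts were tested with edgeR 4.0.16 (R 4.3.3; TMM, filterByExpr, quasi-likelihood, 18 group means over 71 libraries), with DESeq2 1.42.0 as an alternative. Conversion rates, log2 of conversions plus 0.5 over coverage plus 1, and log2 half-lives were tested with limma 3.58.1. Half-lives were fitted in Python 3.11.15 with numpy 2.4.6 and kept up to 18 h where T coverage exceeded 100 and the residual standard error did not exceed 0.3. The sources used here name no molecular identifiers for the reads, so read numbers give counting error only, and errors come from replicates. No 2 replicates were identical (105 pairs, 0 identical), and every pair differed by more than sampling noise (lowest chi-square per degree of freedom 2.64). Named genes are the members, the 4 of each list with the smallest adjusted p over the chase, and the genes with the most similar profiles (5 for the family, 3 for the member with the largest change over the chase). Other list genes were named after their values had been seen. Simulated counts with known changes were used to test the code. Alternatives changed the threshold, the scaling, the reads used, the tool, the background, the time points and the quality limit of the fits, added a replicate block or left a replicate out. Others, added after the data had been seen, are named where their values are given, and the threshold of −30 on the first principal component that set the 12 libraries apart was also chosen then.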

Additional observations from a re-analysis of the deposited data

Results flagged for a closer look

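Dixon's test was applied to the 4 libraries or series of 76 groups (member levels without s4U, at 0 h and at 12 h, and member half-lives). It set 1 value apart in 5 groups, where chance does so in about 1 of 20. Srsf3 had 732 CPM in DMSO replicate 4 without s4U, against 576 to 598 CPM in the other libraries, and this library is one of the 12 that stand apart. Srsf7 had 275 CPM in STM2457 replicate 2 without s4U, against 326 to 334 CPM. Srsf10 had 110 CPM in STM2457 replicate 1 at 12 h, against 89.8 to 93.1 CPM. The half-life of Srsf2 was 3.40 h in STM2457 series 3, against 3.22 to 3.24 h, and that of Srsf5 was 3.29 h in DMSO series 3, against 2.54 to 2.58 h.

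Rsrp1, whose protein is rich in arginine and serine, changed differently over 12 h in the treatments. Its log2 difference between 12 h and 0 h was −1.28 ± 0.19 in DMSO and −0.07 ± 0.19 in STM2457, and the interaction of 1.22 ± 0.27 was called (edgeR, adjusted p = 0.0030). It was the 1 gene of the 26 RS-domain partners called in this test, which called 1.11% of all genes.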

How the results depend on the processing

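Of the 60 recomputed values of the 4 Srsf genes called over the chase, 22 were no longer called, and of the 96 values of the 6 called between 12 h and 0 h in DMSO, 3 were not. No called value changed sign. Of 831 values of Srsf genes not called at first, 9 became called. The calls at 1.5 h and 5.3 h are not among these values. The covariate, the fit without the 12 libraries and the trend over 8 times were chosen after the data had been seen. Over the chase the count of 4 Srsf genes was 6 at a threshold of 0.05 (4652 genes against 3357), 1 with uniquely mapped reads, 2 with the covariate, 1 without the 12 libraries and 1 to 5 with a replicate left out. Summed over the 9 single comparisons of the treatments, 3680 genes and 7 Srsf calls became 8052 and 11 at a threshold of 0.05. The Srsf calls were 4 with the covariate and 4 without the 12 libraries. With a replicate left out these sums ran from 2138 to 4829 genes and from 2 to 9 Srsf calls. Between 12 h and 0 h in DMSO, 1651 genes became 2856 at 0.05, 2529 with the trend and 1008 to 1725 with a replicate left out, and the 6 Srsf genes 5 to 6. In STM2457, 598 genes became 1205 at 0.05, 1103 without the 12 libraries, 1076 with the trend and 217 to 704 with a replicate left out. For the interaction, 140 genes became 283 at 0.05, 236 with the covariate, 236 without the 12 libraries, 224 with the trend and 87 to 112 with a replicate left out. The 0 Srsf genes became 1, Srsf3, at 0.05, with the replicate block, uniquely mapped reads, the covariate, the 12 libraries left out and DESeq2, and 0 to 1 with a replicate left out. For each of these changes the cause was not tested.

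The replicate numbers gave no sign of pairing in the counts, where deviations of same-numbered libraries correlated at 0.0075 on average (−0.06 to 0.23, above 0.1 in 1 of 35 pairs). In the conversion rates replicate 1 was the lowest in both treatments at 0, 1.5 and 2.3 h. Whether the numbers link libraries across times is not known, and the half-life series rest on them. With the replicate block the interaction of Srsf3 was 0.63 (edgeR, adjusted p = 0.0089), and the number of Srsf genes called changed in no other comparison named here.

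Limma's 0 genes for the rate at onset and for the label kept each became 1 with the background subtracted first and 0 to 1 with a replicate left out, and its 1 half-life became 0 without background subtraction, 0 without 3.5 h, 2 with a residual standard error of at most 0.15 and 0 to 2 with a replicate left out. Srsf4, with as few as 6272 covered T positions at the onset, had the least depth for rates.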
